A study of Homo sapiens with 6 samples.

Results

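The locus described here is a stretch of chromosome 9 that holds PHF24, DNAJB5, C9orf131 and 3 genes without a symbol, ENSG00000279608, ENSG00000273597 and ENSG00000279489. They are 6 of 61496 features in the deposited table, and all 6 were among the 27514 that had enough counts for a test. The genes were chosen by their measured fold change between Sev-treated and control U251 cells and by their common position. These fold changes are therefore given as a description, without a test. U251 is an established human glioma cell line. The data were 3 libraries of untreated control cells and 3 libraries of cells exposed to sevoflurane (Sev), a volatile anesthetic, for 2 h. The labels list several gas concentrations without assigning one to a library, and the paper ties the sequenced cells to the highest of them. RNA was depleted of ribosomal RNA and ligated to strand-specific adapters. The study states independent experiments for its quantitative data in general, but the labels do not say that the 3 libraries of a group came from separate cultures. The errors below therefore measure the spread between libraries, which may be technical. In bulk RNA, more or fewer cells that express a gene and more or less RNA per cell cannot be told apart.

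PHF24 encodes a PHD finger protein also called GINIP, which binds inhibitory G protein alpha subunits and is known for supporting GABA-B receptor signaling in neurons. DNAJB5 encodes a cytosolic J-domain protein, a class of co-chaperones that hand unfolded proteins to Hsp70 and stimulate its ATPase. It is also known to join thioredoxin and the class IIa histone deacetylase HDAC4 in a redox-sensitive complex. C9orf131, named SPATA31G1 by RefSeq, belongs to a gene family known mainly from testis. ENSG00000273597 is annotated as a processed pseudogene, and ENSG00000279608 and ENSG00000279489 carry the GENCODE type TEC, given to transcripts whose status awaits experimental proof.

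All positions are those of GENCODE 29 on GRCh38, joined through the Ensembl identifiers. The submitters' processing notes name hg18, an older build than the one on which several of these identifiers were introduced, so no position was taken from the deposited files. The 6 genes span 88.4 kb, from 34957608 to 35045991 on chromosome 9. PHF24 (34957608 to 34982544) and DNAJB5 (34989641 to 34998900) lie on the plus strand and point the same way. Downstream of DNAJB5 lie ENSG00000273597 (35001342 to 35002994) on the minus strand and ENSG00000279489 (35001913 to 35003663) on the plus strand, which overlap by 1082 bases. At the far end, ENSG00000279608 (35038625 to 35044326) on the minus strand and C9orf131 (35041095 to 35045991) on the plus strand overlap by 3232 bases, and 56.6% of the exon bases of C9orf131 lie within ENSG00000279608. Higher counts with Sev were thus assigned to genes annotated on both strands, 4 on the plus strand and 2 on the minus strand. Each of these 2 overlaps a plus-strand member, and the strand setting of the counting is not given.

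The sequences before the RefSeq starts are shown because 2 of the genes and a divergent RNA between them were all higher with Sev. The RefSeq promoter table matched PHF24 and DNAJB5 and also DNAJB5-DT, a long non-coding RNA transcribed away from DNAJB5. The window of PHF24 is chr9:34957237-34957486 (plus strand), that of DNAJB5 is chr9:34990040-34990221 (plus strand) and that of DNAJB5-DT is chr9:34989380-34989629 (minus strand), all GRCh38.p14 from RefSeq. The DNAJB5-DT window covers most of the 261 bases between the starts of DNAJB5-DT and DNAJB5 in GENCODE. DNAJB5 has several annotated starts, and the RefSeq start lies 649 bases inside the gene body given by GENCODE. Its window therefore precedes the RefSeq start but lies after the outermost GENCODE start, in an intron of the transcripts that begin there. The printed part stops where the next annotated exon begins, and the search covered the full 250 bases before the RefSeq start. Capitals mark matches to any of 9 short motifs searched on both strands.
PHF24: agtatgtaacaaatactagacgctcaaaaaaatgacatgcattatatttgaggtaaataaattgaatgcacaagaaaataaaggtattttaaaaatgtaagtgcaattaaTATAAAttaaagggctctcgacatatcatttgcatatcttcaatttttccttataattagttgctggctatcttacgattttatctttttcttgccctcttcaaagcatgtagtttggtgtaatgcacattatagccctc
DNAJB5: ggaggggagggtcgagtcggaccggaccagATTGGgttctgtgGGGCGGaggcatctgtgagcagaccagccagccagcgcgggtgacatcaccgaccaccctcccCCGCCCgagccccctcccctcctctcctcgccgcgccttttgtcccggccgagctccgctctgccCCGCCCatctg
DNAJB5-DT: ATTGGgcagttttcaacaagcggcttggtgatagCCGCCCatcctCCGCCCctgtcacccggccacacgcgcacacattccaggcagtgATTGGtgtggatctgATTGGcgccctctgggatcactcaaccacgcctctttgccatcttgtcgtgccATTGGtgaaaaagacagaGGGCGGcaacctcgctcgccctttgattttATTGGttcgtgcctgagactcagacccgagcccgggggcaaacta
The window of PHF24 was AT-rich, with 29.6% GC and 3 CpG sites, against medians of 58.0% and 11.0 over 35116 promoters of the same length. Over the full 250 bases searched, DNAJB5 had 68.4% GC and 19 CpG sites, and DNAJB5-DT had 57.6% GC and 15 CpG sites. The PHF24 window held 1 match to the TATA box letters (TATAAA), at −140 from the RefSeq start, and 10.7% of all promoters held a match anywhere in the window. The DNAJB5-DT window held 5 CCAAT boxes (CCAAT), and 0.319% of all promoters held at least as many. The full DNAJB5 window held 2, 1 of them in the part not printed, and 9.53% of promoters held at least as many. DNAJB5 and DNAJB5-DT each had 3 GC boxes (GGGCGG), and 13.9% of promoters had at least as many. The cAMP response half-site (TGACG) matched 1 time in the full DNAJB5 window, in the part not printed, and in 21.2% of promoters. The cAMP response element (TGACGTCA), the AP-1 site (TGANTCA), the paired heat shock element (GAANNTTC), the ATF4 and C/EBP composite site (TGATGNAA) and the E-box (CACGTG) had no match in the 3 windows, and their letters occurred in between 1.65% and 6.57% of all promoters. A match describes letters and is not a bound site.

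Library totals ran from 38624292 to 46318311 counts, and TMM factors from 0.918 to 1.08. Within a group, pairs of libraries differed beyond sampling noise in between 50.5% and 68.0% of 13668 abundant genes, so none looked like 1 library deposited again. The 7 glioma and astrocyte lineage markers (GFAP, VIM, NES, S100B, SOX9, CD44 and PTPRZ1) were all present. They summed to between 7579 and 8528 CPM in control cells and between 8694 and 9194 CPM in Sev-treated cells, without overlap. VIM alone was at 5123 to 6497 CPM over the 6 libraries, so the sums mostly follow VIM. They give no direction for a single marker. The 6 markers of other cells (PTPRC, CD3E, CD68, PECAM1, EPCAM and ALB) summed to between 5.12 and 7.78 CPM in control cells and between 7.42 and 8.57 CPM in Sev-treated cells, with CD3E at 0. Their part in the results was not tested.

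PHF24 went from nearly silent to clearly detected in Sev-treated cells. It had 17, 12 and 15 counts in the control libraries and 1408, 845 and 1704 counts in the Sev libraries. In CPM (counts scaled to library size, with TMM factors), it was at 0.338 ± 0.0555 (SD, n = 3) in control cells and 34.3 ± 10.6 (SD, n = 3) in Sev-treated cells, a ratio of 101. The lowest Sev library, replicate 2 at 22.5 CPM, was still far above the highest control library at 0.402 CPM. Its log2 fold change was 6.65 (standard error 0.32), and 0.323% of all tested features had a larger one.

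DNAJB5 was already expressed in control cells, with 555, 518 and 608 counts, and reached 2970, 2677 and 3479 counts with Sev. That was 12.9 ± 0.331 CPM (SD, n = 3) against 79.3 ± 8.29 CPM (SD, n = 3), a ratio of 6.14 and a log2 fold change of 2.62 (standard error 0.10). Among the 6 genes it had the smallest fold change, and per length it had the highest level in control cells and the second highest with Sev. The control libraries agreed closely, and each Sev library was above all of them.

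C9orf131 had 30, 23 and 30 counts in control cells and 1219, 1183 and 1645 counts in Sev-treated cells. Its level went from 0.636 ± 0.0662 CPM (SD, n = 3) to 35.1 ± 5.56 CPM (SD, n = 3), a ratio of 55.2 and a log2 fold change of 5.78 (standard error 0.18). ENSG00000279608, which overlaps it on the other strand, had 423, 333 and 487 counts in control cells and 3951, 3497 and 4122 with Sev. It went from 9.48 ± 0.93 CPM (SD, n = 3) to 101 ± 6.59 CPM (SD, n = 3), a log2 fold change of 3.41 (standard error 0.11). The pair therefore differed in control level by over an order of magnitude while both were far higher with Sev, and the groups did not overlap for either.

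ENSG00000273597 was the noisiest of the 6 in control cells, with 6, 37 and 17 counts, and had 564, 442 and 700 counts with Sev. Its CPM was 0.475 ± 0.411 (SD, n = 3) against 14.8 ± 2.96 (SD, n = 3), and the log2 fold change of 4.98 (standard error 0.51) moved to 5.86 without control replicate 2, the library with the most counts. ENSG00000279489 had 31, 34 and 28 counts in control cells and 396, 526 and 622 with Sev, or 0.723 ± 0.141 and 13.4 ± 2.64 CPM (SD, n = 3 each), a log2 fold change of 4.22 (standard error 0.23). ENSG00000273597 and ENSG00000279489 are 1653 and 1751 bases long, lie on opposite strands and share 1082 bases. All 6 genes were past the threshold of the study, a log2 fold change over 1 with an unadjusted p under 0.05, as were 11.4% of all tested features in this direction, but these values chose the genes and the count supports nothing. Every Sev library was above every control library for all 6, as for 28.3% of the tested features.

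**Figure D1:**
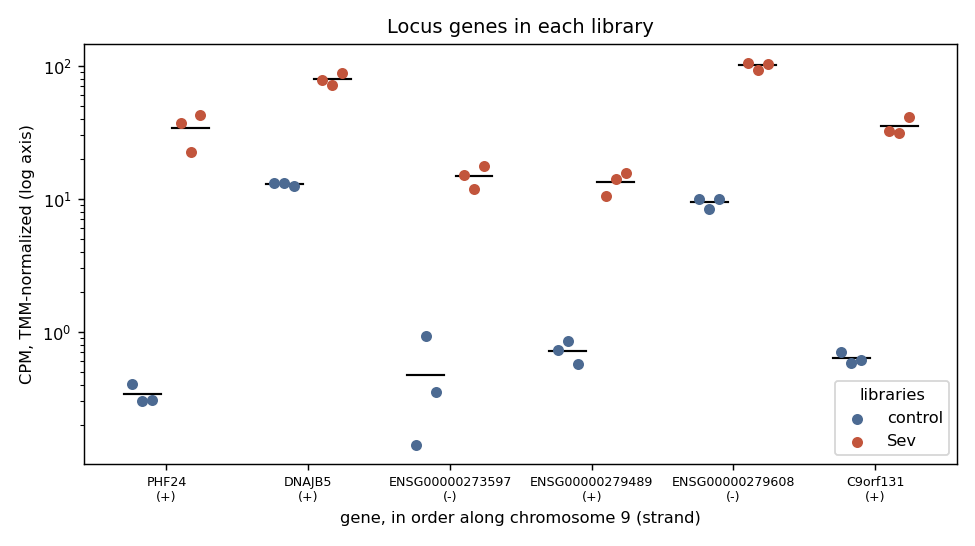
CPM on a log axis for the 6 locus genes in order along chromosome 9, with strand in brackets; each point is 1 library (3 control, 3 Sev) and each line a group mean. Every Sev point lies above every control point of the same gene, and the control points of DNAJB5 and ENSG00000279608 lie near 10 CPM while those of the other 4 genes lie under 1 CPM.

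The mix of RNA from the locus differed between the groups. In control cells DNAJB5 and ENSG00000279608 held nearly all counts of the 6 genes, with 51.3% to 54.1% and 34.8% to 41.1%. In Sev-treated cells ENSG00000279608 still held 33.6% to 38.1%, a range that overlaps the control range. DNAJB5 held 28.3% to 29.2% with Sev, PHF24 held 9.21% to 13.9% and C9orf131 held 11.6% to 13.4%. The share of PHF24 in control cells was 1.25% to 1.6%. The summed level of the 6 genes went from 24.6 ± 0.492 to 278 ± 32.9 CPM (SD, n = 3 each), a ratio of 11.3. Sev replicate 3 had the highest sum, 309.8 CPM, and Sev replicate 2 the lowest, 244 CPM. PHF24, DNAJB5, C9orf131, ENSG00000273597 and ENSG00000279608 were lowest in Sev replicate 2, whereas ENSG00000279489 was lowest in Sev replicate 1.

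Per length, the genes were more alike with Sev than without. The deposited FPKM values, counts scaled by length and library, ran in control cells from 0.0478 ± 0.00805 for PHF24 to 1.86 ± 0.0692 for DNAJB5 (SD, n = 3 each), a range of 38.8 times. In Sev-treated cells they ran from 4.57 ± 1.54 for PHF24 to 13.6 ± 1.29 for ENSG00000279608 (SD, n = 3 each), a range of 2.97 times. The order with Sev was ENSG00000279608, DNAJB5 (10.4 FPKM), C9orf131 (7.08 FPKM), ENSG00000273597 (6.91 FPKM), ENSG00000279489 (5.89 FPKM) and PHF24. From C9orf131 downward, neighbours in this order overlapped between libraries, while the upper 2 stood clear of each other and of C9orf131. The difference in FPKM between the groups ran from 4.52 ± 0.89 (SE) for PHF24 to 12.2 ± 0.749 (SE) for ENSG00000279608, a range of 2.69 times, whereas the CPM ratios spanned 16.5 times. The genes with the smallest ratios, DNAJB5 and ENSG00000279608, were those with the highest control levels. The control level is the denominator of the ratio, so this pairing is partly built in. Both also had the largest FPKM differences of the 6 genes, 8.52 ± 0.828 (SE) and 12.2.

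**Figure D2:**
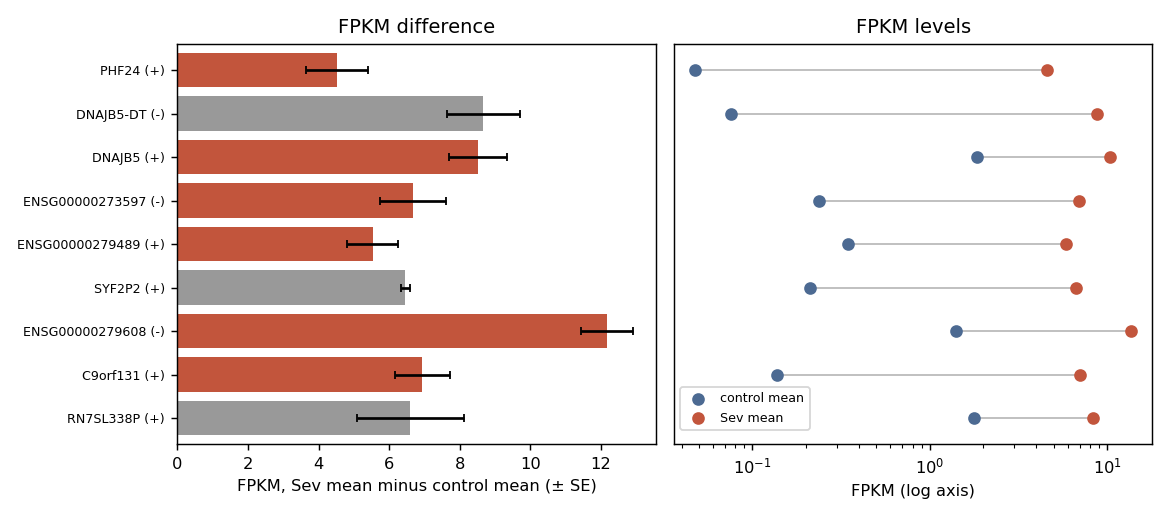
Left, the difference in FPKM between Sev-treated and control cells (bars, ± SE from 3 libraries a group) for 9 genes in order along chromosome 9, locus members in red and other genes in grey; right, the group means on a log axis. Control means are scattered from 0.0478 to 1.86 FPKM, while all 9 Sev means lie between 4.57 and 13.6 FPKM.

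The flanks were described with every other annotated gene within 250 kb of the outer ends of the 6 genes, 17 in all, of which 10 were tested. The edges of the locus were drawn with values known, so the contrast between inside and outside is not independent evidence. Of the 10, 4 rose and 2 fell at an adjusted p under 0.05 in edgeR's test, against 22.1% and 21.5% of all tested features. The 7 others had between 0 and 12 counts per library, too few to test.

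Among the tested neighbours, 3 lie between or just beyond the 6 genes, and all 3 rose in Sev-treated cells. DNAJB5-DT (34985410 to 34989379, minus strand), which starts 261 bases from DNAJB5, had 2, 5 and 3 counts in control cells and 327, 260 and 390 with Sev. It rose by 6.73 ± 0.32 (SE) on the log2 scale (edgeR quasi-likelihood, adjusted p = 2.91e-05). SYF2P2 (35010703 to 35011285, plus strand), a pseudogene of the splicing factor gene SYF2, had 6, 9 and 5 counts against 196, 196 and 189, a rise of 5.01 ± 0.28 (SE) on the log2 scale (edgeR, adjusted p = 5.1e-05). RN7SL338P (35049271 to 35049563, plus strand), a pseudogene of the 7SL RNA of the signal recognition particle, lies 3279 bases beyond C9orf131 and had 32, 17 and 33 counts against 155, 84 and 127. It rose by 2.35 ± 0.31 (SE) on that scale (edgeR, adjusted p = 0.000988). In FPKM these 3 differed by 8.68, 6.46 and 6.60 between the groups, within the range of the 6 genes.

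Outside this stretch, the tested genes had log2 fold changes between −0.52 and 0.96. VCP (35056064 to 35073249, minus strand), an AAA ATPase that extracts ubiquitinated proteins, lies 6.5 kb beyond RN7SL338P and was abundant, with 550 ± 61.3 CPM in control cells and 768 ± 1.95 CPM with Sev (SD, n = 3 each). It rose by 0.48 ± 0.097 (SE) on the log2 scale (edgeR, adjusted p = 0.00574). PIGO, an enzyme of GPI anchor synthesis, fell by 0.52 on the log2 scale (adjusted p = 0.00565, edgeR). UNC13B, which primes synaptic vesicles, fell by 0.30 (adjusted p = 0.0397, edgeR), and its call was lost without Sev replicate 1, Sev replicate 3 or any 1 of the control libraries, with adjusted p-values up to 0.107. FANCG, a Fanconi anemia repair gene, STOML2, a mitochondrial membrane protein gene, and ATOSB had log2 fold changes of −0.16, 0.21 and 0.075, with adjusted p-values of 0.184, 0.107 and 0.588 in edgeR's test. With library size only, FANCG was at −0.30 (edgeR, adjusted p = 0.0343), and with limma on log2(FPKM + 0.1) also at −0.30 (adjusted p = 0.0254). On the other side of PHF24 the nearest tested gene was the pseudogene YWHAZP6, 34.7 kb away, with 10, 12 and 6 counts in control cells and 19, 17 and 13 with Sev and a log2 fold change of 0.96 (adjusted p = 0.102, edgeR).

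**Figure D3:**
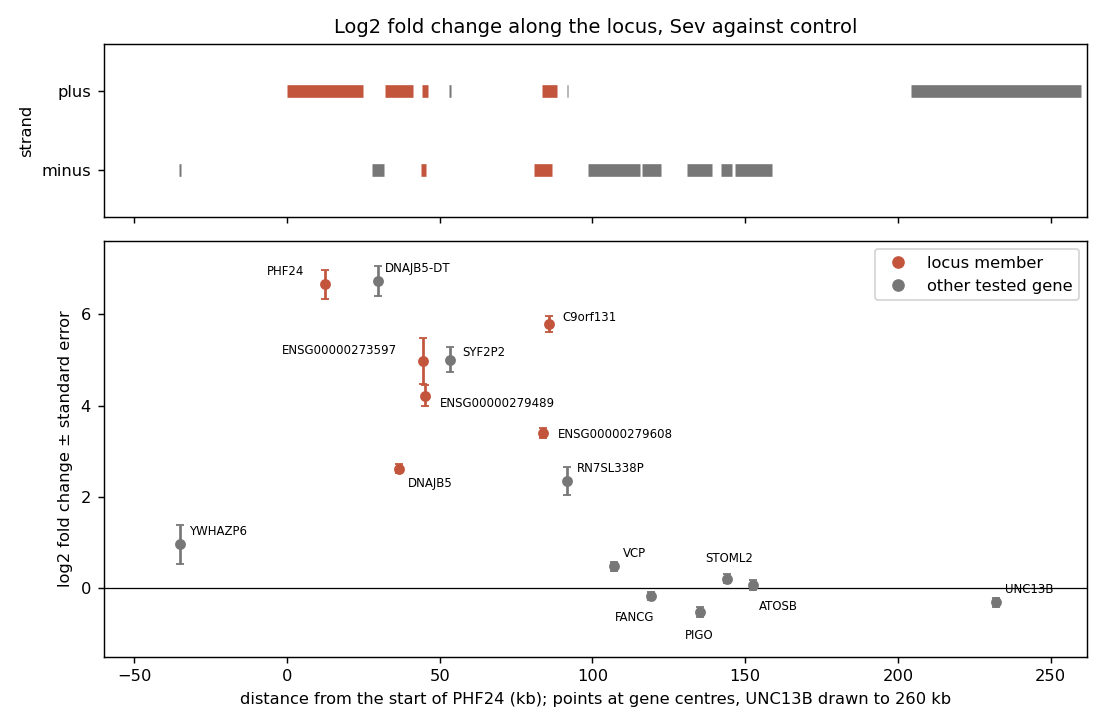
Upper panel, annotated gene bodies by strand; lower panel, log2 fold change (Sev against control, ± standard error from edgeR, 3 libraries a group) against distance in kb from the start of PHF24, for the 6 locus genes (red) and the 10 other tested genes within 250 kb (grey). The 9 genes from PHF24 to RN7SL338P lie between 2.35 and 6.73, and the flanking genes between −0.52 and 0.96.

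Taken by position, the 9 genes from PHF24 to RN7SL338P formed an unbroken run of tested genes past the threshold in the upward direction, over 91.96 kb. Of 25859 tested genes with a position on the autosomes or X, 11.1% were past it in this direction, and they formed 1975 runs, of which 1420 held a single gene and 34 held 5 or more. The run of 9 was the longest. The next held 8 genes at the alpha-globin cluster on chromosome 16 (152687 to 181181), from HBZ to HBQ1, with a Y_RNA gene among them. A pair of runs held 7 genes each, from SGK1 to ENSG00000240056 on chromosome 6 and from SHH to RNF32-AS1 on chromosome 7, and these stretched over 781 kb and 877 kb. This count describes the libraries and is no test, since the locus was chosen for its rise. It was the longest, or shared the greatest length, in 14 of 15 other settings, and without control replicate 1 another run reached 10 genes.

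**Figure D4:**
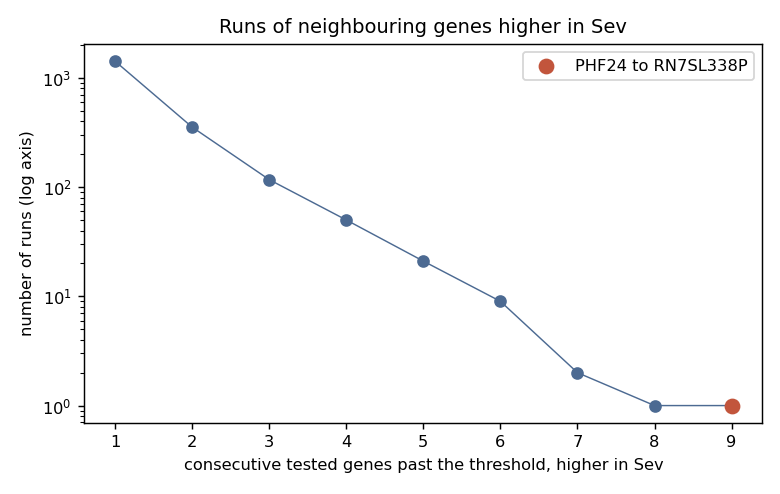
Number of runs (log axis) against the number of consecutive tested genes past the threshold and higher in Sev; the red point is the run from PHF24 to RN7SL338P. Counts of runs drop from 1420 for a single gene to 1 each for 8 and 9 genes.

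By gene type, past the threshold and higher were 9.08% of 15175 tested protein-coding genes, 13.3% of 2710 processed pseudogenes, 10.7% of 488 TEC genes and 22.1% of 1942 long intergenic RNAs. The tables give 1 value per gene, so reads between genes were not seen, and it is not stated how reads in the overlapping pairs were assigned. As a check on strand, 235 genes of at least 200 bases whose exons lie wholly within exons of an expressed gene of the opposite strand were examined, and 34.5% of them held any count. Their median count per base was 0% of that of the surrounding gene and the upper quartile was 0.12%. For 74 genes nested on the same strand, 91.9% held a count, with a median of 2.62%. Genes nested in antisense thus held far fewer counts, relative to the surrounding gene, than genes nested in sense.

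Shared sequence was also examined, since reads from copies elsewhere could be counted here. With blastn against all GENCODE 29 transcripts of genes outside the run, PHF24, DNAJB5-DT and ENSG00000273597 had no match with an E-value under 1e-20. The leading match of DNAJB5 covered 24.2% of a transcript at 70.4% identity. ENSG00000279489 and ENSG00000279608 matched over 372 and 593 bases at 94.9% and 92.2% identity, which is 21.2% and 10.3% of their length. For C9orf131 the match was 282 bases at 93.3% identity, in a short isoform of 579 bases. SYF2P2 matched SYF2 over 96.2% of its length at 75.6% identity, and RN7SL338P matched another 7SL copy over its whole length at 73.8%.

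The profile nearest to that of PHF24 was sought over the 6 libraries, by the root mean square distance of log2 CPM after subtracting the control mean. Outside the member list the 5 nearest were ENSG00000287725 (0.42), CATSPERD (0.42), DNAJB5-DT (0.45), MSTRG.6740 (0.57) and COL20A1 (0.70). CATSPERD encodes a subunit of the sperm calcium channel and COL20A1 a collagen, and they lie on chromosomes 19 and 20. ENSG00000287725 and MSTRG.6740 have no position in GENCODE 29. All 5 had at most 13 counts in any control library. Of the other members C9orf131 was nearest, at 0.57, and DNAJB5 farthest, at 2.71.

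The relatives and partners of DNAJB5 moved in both directions. Of 11 other DNAJB genes, 4 rose and 1 fell at an adjusted p under 0.05 in the same test, where 22.1% and 21.5% of all features did, and their median log2 fold change was 0.20 against −0.0056 over all features. DNAJB1, the main heat-inducible J-domain protein, rose from 173 ± 2.52 to 437 ± 36.4 CPM (SD, n = 3 each), a log2 fold change of 1.34 (adjusted p = 7.42e-05, edgeR). DNAJB8, known from testis, rose by 1.33 from 0.518 CPM, and DNAJB12, of the ER membrane, rose by 0.61. DNAJB4 fell by 0.87 (adjusted p = 0.00128, edgeR).

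Of 20 heat shock response genes, 8 were higher and 2 were lower, beside 22.1% and 21.5% of all tested features, with a median log2 fold change of 0.17 beside −0.0056. DNAJB1, also on this list, was the only 1 of them past a log2 fold change of 1. HSP90AB1, the constitutive cytosolic Hsp90, rose by 0.56 (adjusted p = 0.00359, edgeR), and CRYAB, a small heat shock protein, by 0.54 (adjusted p = 0.0333, edgeR). CRYAB lost its call without Sev replicate 2, Sev replicate 3, control replicate 1 or control replicate 3. HSPA4L and HSPH1, both Hsp110-type exchange factors, fell by 0.67 and 0.48. HSPA1A and HSPA1B are near-identical and share reads, and their log2 fold changes of −0.45 and 0.22 are uncertain. HSPA1A had 39 counts in Sev replicate 2 and at least 2162 in each other library, and HSPA1B was 1 of the 8 (edgeR, adjusted p = 0.0455). The count of 8 fell to 3 without control replicate 1 or control replicate 3 and to 4 without any 1 of the Sev libraries.

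Of 7 genes of the thioredoxin system and class IIa deacetylases, listed here because thioredoxin and HDAC4 join DNAJB5, 3 were higher and 2 were lower, beside the same 22.1% and 21.5% of all features, and the median log2 fold change was 0.09. TXNRD1, thioredoxin reductase, rose from 203 ± 55.2 to 459 ± 80.4 CPM (SD, n = 3 each), a log2 fold change of 1.18 (adjusted p = 0.00306, edgeR). TXN, thioredoxin, rose by 0.53 (adjusted p = 0.0133, edgeR), a call lost without Sev replicate 1 or control replicate 3. HDAC4 fell by 0.75 (adjusted p = 0.000685, edgeR). HDAC9 rose by 0.35 and HDAC5 fell by 0.32, and each kept its call only without Sev replicate 2 when 1 library was left out. Without Sev replicate 1 or control replicate 3, 1 gene remained higher, and without Sev replicate 1, Sev replicate 3, control replicate 1 or control replicate 3, 1 was lower.

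The genes of GABA-B receptor and inhibitory G protein signaling, in which PHF24 acts, were called about as often as features at large. Of 16 genes 14 were tested, and 3 were higher and 3 were lower, beside 22.1% and 21.5% of all features, with a median log2 fold change of −0.091. GABBR1, a subunit of the GABA-B receptor, fell from 60.3 ± 9.06 to 24.1 ± 3.13 CPM (SD, n = 3 each), a log2 fold change of −1.32 (adjusted p = 0.000421, edgeR). Its auxiliary subunits KCTD16 and KCTD12 fell by 2.45 and 0.59. GNAI3, an inhibitory G protein alpha subunit, rose by 0.28, and kept its call only without control replicate 2 when 1 library was left out. GNAT1, the rod transducin subunit, had 5, 4 and 3 counts in control cells and 50, 55 and 74 with Sev, and KCNJ5, a G protein-gated potassium channel subunit, had 6, 0 and 0 against 68, 66 and 96. Both rose in edgeR's test (adjusted p = 0.000183 and 0.00115), by 4.03 and 5.34 on the log2 scale, and control replicate 1 held the only control counts of KCNJ5, without which its fold depends on the prior count. The receptor subunit GABBR2 and the alpha subunits GNAI1 and GNAI2 had log2 fold changes of 0.53, −0.079 and 0.048 that did not pass the test.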

How the data were processed

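Total RNA of U251 cells was sequenced in 6 libraries, 3 control and 3 Sev, grouped by their titles. The authors deposited counts per gene without normalization, and deposited FPKM values for the same features. The submitters' processing notes name bcl2fastq 2.19, featureCounts and hg18. The aligner, annotation and strand setting are not given in the sources used here. Symbols came from a table of gene names, and positions from GENCODE 29.

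The whole count table was fitted in R 4.3.3 with edgeR 4.0.16 (filterByExpr, TMM, glmQLFit and glmQLFTest, 2 groups, no covariate), with Benjamini-Hochberg adjustment over 27514 features. Standard errors are the absolute log2 fold change over the square root of F. CPM hold no prior count, and the profile distances used a prior count of 2. Copies were sought with blastn 2.17.0. The fit was tested on simulated data drawn from the same means. The members, gene lists, motifs and rules were chosen with earlier results of these data known. Named were the members, all tested genes within 250 kb, the 5 nearest profiles, the longest runs and, of each list, up to 3 called genes in each direction with the largest change, plus a few list genes named after their values were seen (GABBR2, GNAI1, GNAI2, HSPA1A and HSPA1B). Alternatives were other scalings and filters, the Wald test of DESeq2 1.42.0, a replicate block, leaving out each library, and limma 3.58.1 on log2 FPKM. An exact permutation test of 3 against 3 cannot go under 0.1, so none was used. Precision is limited by 3 libraries a group and, under about 20 counts, by counting error.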

Additional observations from a re-analysis of the deposited data

How the results depend on the processing

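All 6 locus genes had a log2 fold change over 1 under each of the 15 alternatives in which they were tested, and the run held 9 genes in all but 2 of them (6 with at least 10 counts in every library, where 5 of the 6 locus genes were tested, and 10 without control replicate 2). The median log2 fold change of the 6, 4.60, was 4.13 with limma on log2(FPKM + 0.1), 2.48 on log2(FPKM + 1) with or without the filter, a scale that understates changes of low genes, 4.21 with at least 10 counts in every library, and 4.38 to 5.03 leaving out 1 library. Library size only moved the median of all features by −0.14, and the median of the DNAJB5 partner genes from 0.09 to −0.056. ATOSB turned from 0.075 to −0.071 with library size only, −0.065 on log2(FPKM + 0.1) and −0.053 on log2(FPKM + 1) with or without the filter. FANCG, −0.16 and not called, passed the adjusted threshold at −0.30 with library size only and on log2(FPKM + 0.1) and at −0.27 on log2(FPKM + 1) with or without the filter, so that 3 neighbours were lower in these settings. The cause was not tested.

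Features past the threshold and higher, 3147, numbered 1476 on log2(FPKM + 0.1), 579 on log2(FPKM + 1) with or without the filter and 1691 with at least 10 counts in every library. The lower ones, 3315, numbered 690 on log2(FPKM + 1), 691 without its filter and 2148 with at least 10 counts. For the remaining counts at an adjusted p under 0.05, limma on log2(FPKM + 0.1) and log2(FPKM + 1) gave 2 higher DNAJB genes each, 3 higher heat shock genes each (3 also without the filter) and 0 higher GINIP pathway genes of 7 tested, 0 also at an unadjusted p under 0.05. The 1 higher DNAJB5 partner was on log2(FPKM + 1) without the filter. At least 10 counts gave 1 higher GINIP pathway gene and 2 higher neighbours. Library size only gave 5 lower GINIP pathway genes and 3 higher heat shock genes. No expression filter gave 4 higher heat shock genes, 1 lower DNAJB5 partner and 1 lower neighbour. With the replicate number as a block, 5 heat shock genes were higher, and 1 DNAJB5 partner and 1 neighbour were lower. Same-numbered libraries did not deviate together (correlations from −0.0072 to 0.027 over 27514 genes), so they share only a number.

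Leaving out 1 library gave 1 to 2 lower DNAJB genes (2 without Sev replicate 2), 1 to 3 higher and 1 to 2 lower DNAJB5 partners, 3 to 6 higher heat shock genes and 1 to 2 lower neighbours (1 in all but the fit without Sev replicate 2, UNC13B being the gene lost). Depth limits the low control levels, and so the fold changes, of PHF24, ENSG00000273597, DNAJB5-DT and SYF2P2.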
